A study of Mus musculus with 26 samples.

Results

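Mesenteric arteries of mice labelled Y198F, in which a tyrosine of pannexin 1 is changed to phenylalanine, were compared with arteries of the controls that the labels assign to that line. The comparison holds 3 Y198F libraries and 3 Y198F Control libraries, chosen by their titles, of 26 libraries in the series. The labels give the genotype Y198F+/+ to the mutants and Y198F-/- to the controls, which the study describes as littermate or wild-type animals. The arteries were taken from males aged 8 weeks, with no treatment named, and poly(A) RNA gave paired reads of 150 bases. The labels give neither the strain nor which controls were littermates, nor whether a library is 1 animal, so p-values measure the spread between these libraries. All 57010 gene identifiers of the counts table were read, and 16050 passed the filter on low counts.

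The library names open with what is read here as a tag of the line (Y1 or WTY1), followed by a number. In the 3 Y198F libraries that number begins with 22 (called the 22 series here), whereas in none of the 3 Y198F Control libraries does it. The labels do not say what this number marks. Genotype and library series cannot be told apart in these 6 libraries. The S205A line, in which a serine of pannexin 1 is changed to alanine, has both kinds of library in both of its groups: 3 of 4 S205A Control and 3 of 4 S205A libraries belong to the 22 series. It shares no library with the Y198F comparison. The main Y198F differences are therefore given beside the difference between the library series in the S205A line, called the series difference, which rests on 6 libraries against 2.

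Pannexin 1 forms large-pore channels in the plasma membrane of smooth muscle and endothelial cells and releases ATP, which acts on purinergic receptors of the vessel wall. Phosphorylation of residues in its intracellular loop is known to alter channel opening, and phenylalanine lacks the hydroxyl group that a tyrosine kinase modifies. RNA libraries made from poly(A) RNA are meant to leave out ribosomal RNA and the short structured RNAs made by RNA polymerase III, because these have no poly(A) tail. The codon changed in the Y198F line lies in exon 4 of Panx1 at chr9:14919264-14919266 (GRCm39, minus strand). It is shown because it is the site that defines the line, within chr9:14919252-14919278, with the codon in capitals, as the reference genome has it.
Panx1 tyrosine codon: atcgtggagcagTACttgaagacaaaa

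Panx1 itself was low in these arteries. Its level, in CPM (counts scaled to a common library size with the TMM factors of the fit), was 3.32, 3.56 and 2.27 in Y198F Control 1, 2 and 3 and 3.32, 1.99 and 4.85 in Y198F 1, 2 and 3. The groups overlapped, and the log2 fold change was 0.15 (SE 0.39, adjusted p = 0.835, edgeR's quasi-likelihood test, n = 3 per group). It was -0.03 without Y198F Control 3 and -0.19 without Y198F 3. A change of 1 residue cannot be seen in counts per gene, so this level checks nothing about the labels. Panx2 had 2, 6 and 4 counts in the controls and 0, 0 and 12 in the mutants, and Panx3 had 0 in each of the 6 libraries. Neither passed the filter, and the floor of detection is 3 counts per library.

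Library totals ran from 17304603 to 18873745 counts, with 22914 to 23130 genes detected in the controls and 19475 to 21699 in the mutants. Markers of arterial muscle and endothelium were present in every library: Acta2 lay between 9974 and 14984 CPM, Myh11 between 8684 and 13772 CPM and Pecam1 between 2179 and 2692 CPM. Of the cell types that can adhere to the vessel, white adipocyte markers stood out in Y198F 3, where the 13 genes summed to 3867 CPM of all counts, against 911 to 1559 CPM in the other 5 libraries. Erythroid genes summed to 395 CPM and mesothelial genes to 46.0 CPM in the same library, above the other 5 in both cases (at most 137 and 10.05 CPM). No member of these 3 lists passed the test, and their part in the results was not tested. The 8 intestinal epithelium genes summed to 11.3 to 22.4 CPM and the 10 pancreatic genes to 8.56 to 13.4 CPM. Epcam, Fabp2, Reg3b and Clps among them had 0 counts in each of the 6 libraries, whereas Lgals4, Vil1, Muc2, Cpb1 and Cela1 were counted in each.

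Between Y198F and Y198F Control, 1532 genes rose and 879 fell, which is 15.0% of the 16050 tested (9.55% higher and 5.48% lower, edgeR's quasi-likelihood test, adjusted p under 0.05). The genes that differed were unevenly spread over RNA types. Of the 867 processed pseudogenes tested, 462 rose and 13 fell, and their log2 fold changes had a median of 1.55. Of 12908 protein-coding genes with several exons, 1017 rose and 792 fell, with a median of -0.01. Of 1409 lncRNA genes 7 rose and 32 fell, and of 324 provisional gene models 10 fell and 0 rose. The groups did not overlap in 34.2% of all genes tested. The number of called genes was 908 without Y198F Control 3, 1546 without Y198F Control 1, and 2093 without Y198F 3.

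With all 8 groups of the series in one fit, which then share an estimate of the spread, 922 genes were called. Of the 49 genes named by rule that were called in the 6 libraries, 18 kept their call there and 31 did not, at adjusted p = 0.0556 to 0.48 (edgeR). Those 31 were the RNAs Rn18s-rs5, Rn7sk, Malat1, mt-Atp8, mt-Tn, Mir145a, Gm42047 and Gm21769, the clock genes Nr1d1, Dbp, Bhlhe41 and Nfil3, the vessel wall genes Tagln, Cald1, Cldn5, Erg, Ltbp4, Fbn1, Adamts4, Kcna2, Cacnb3, Adra2c, Rgs19 and Nt5e, and Ston2, Chst8, Hspb1, Ier3, S100b, Gap43 and Pabpn1. Of the other genes given below with a call, Gm55118, Gm55094, H19, Meg3, Norad, mt-Nd4l, mt-Rnr1, mt-Rnr2, mt-Tp, Rpl18, Cox5b, Rgs1, Tie1, Esam, Nos3, Robo4, Loxl1, Smtn, Lmod1, Mbp, Cdh19, Gjc3, Tef, Nr1d2 and Clock did not pass there either.

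In the S205A line, 643 genes were higher and 191 lower in the 22 series than in the other libraries, 4.41% of 18918 tested (3.40% higher and 1.01% lower, with 19.4% at an unadjusted p under 0.05). Of the 2409 genes called in the Y198F comparison that were also tested there, 2380 had the same sign in both (98.8%), against 76.7% of all 15992 genes tested in both. Across those genes Pearson's r was 0.761, as a description over genes that share libraries and are not independent. The Y198F difference was then tested gene by gene against the series difference, in 14 libraries of both lines. No gene of 17479 passed (0%) in edgeR's quasi-likelihood test, while 297 (1.70%) had an unadjusted p under 0.05. That count of 0 held without any 1 of the 14 libraries. The contrast rests on only 2 S205A-line libraries outside the 22 series. Its power was not measured, so 0 calls do not show that the 2 differences are equal. The series count itself fell to 82 without S205A Control 4 and to 113 without S205A 1, the 2 libraries of that line outside the 22 series. It was 408 without S205A Control 3 and 495 without S205A 4.

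The make-up of the libraries by RNA type differed between the groups. Ribosomal RNA took 3.44%, 2.82% and 3.50% of counts in Y198F Control 1, 2 and 3, and 0.108%, 0.110% and 0.115% in Y198F 1, 2 and 3. The controls were thus on average 29.2 times higher, with no overlap. Small structured RNAs took 0.258% ± 0.031 of counts in the controls and 0.0346% ± 0.0066 in the mutants (SD, n = 3 each), 7.46 times more in the controls. Most of that was 1 gene, Gm55118: without its counts the type took 0.0311% ± 0.00041 and 0.0197% ± 0.0015, 1.58 times more in the controls and still with no overlap. The share of lncRNA was 1.38% ± 0.036 in the controls and 0.934% ± 0.033 in the mutants, but without Malat1 it was 0.889%, 1.05% and 0.961% in the controls and 0.847%, 0.884% and 0.896% in the mutants, so the groups then overlapped. Both values without a gene were added after seeing the data. Processed pseudogenes went the other way, with 0.422% ± 0.018 in the controls and 0.749% ± 0.064 in the mutants. The exact two-sided permutation p was 0.1 for each of these 4 types, the smallest that 3 against 3 allows (0.171 after Benjamini-Hochberg adjustment over 12 types), so none can pass 0.05.

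Some RNA types did not separate the groups. The mitochondrial genome took 5.01% to 6.71% of counts in the controls and 5.24% to 6.87% in the mutants. Replication-dependent histone genes, whose messages end in a stem-loop in place of a poly(A) tail, took 0.0153% ± 0.0018 and 0.0163% ± 0.0021, and 0 of the 13 tested passed, where 15.0% of all genes did, so with so few tested that count says little. Among them H1f2 lay between 54.0 and 74.1 CPM in the controls and between 65.7 and 92.4 CPM in the mutants. In the S205A line the 6 libraries of the 22 series had 0.0831% to 0.139% ribosomal RNA and the other 2 had 3.03% and 3.06%. Small structured RNA took 0.0246% to 0.0414% of counts in those 6 and 0.223% to 0.266% in the 2. The Y198F libraries thus lay within the range of the 22 series for ribosomal RNA, and Y198F 2 lay just above it for small structured RNA, at 0.0419%.

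**Figure D1:**
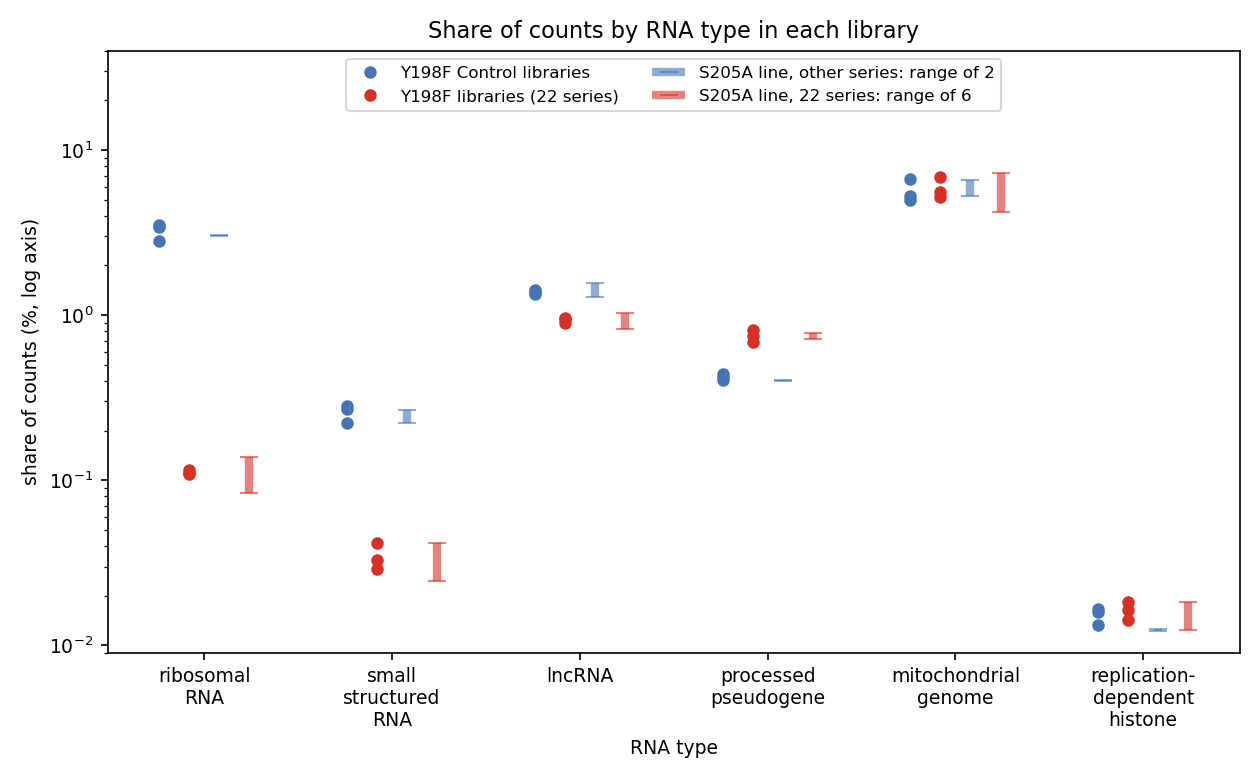
Share of counts (%, log axis) by RNA type. Points are the 3 libraries of each group of the Y198F line, and bars span the range of 2 and 6 libraries of the S205A line. Ribosomal RNA lies near 3% in the 5 libraries drawn from outside the 22 series and near 0.1% in the 9 drawn from it.

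Ribosomal RNA was almost wholly 1 gene, Rn18s-rs5 (chr17:40157244-40159092), which encodes the RNA of the small ribosomal subunit. It had 36070, 28074 and 34830 CPM in Y198F Control 1, 2 and 3 and 1060, 1106 and 1137 CPM in Y198F 1, 2 and 3. Its log2 fold change was -4.91 (SE 0.19, adjusted p = 1.71e-07, edgeR) beside a series difference of -4.93 in the S205A line. Rn7sk, the 7SK RNA that holds the elongation factor P-TEFb inactive, had 1012, 1014 and 847 counts in the controls and 20, 0 and 10 in the mutants. It fell by 6.60 on the log2 scale (SE 0.62, adjusted p = 0.00305, edgeR), with -6.77 between series. Gm22009, annotated as a small Cajal body RNA inside Kpna4 (chr3:68992438-68992780), had 199, 212 and 251 counts in the controls and 0, 0 and 2 in the mutants. The controls were 332 times higher, with an exact 95% counting interval of 91.7 to 2751, and the series difference was -6.05 on the log2 scale. These are transcripts without a poly(A) tail, and all 3 were lower in every Y198F library than in every control library.

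Of the 61 small structured RNAs tested, 10 fell and 3 rose, 21.3% against 15.0% of all genes (5.48% lower and 9.55% higher). Mir145a, which lies in the locus of a microRNA typical of smooth muscle, rose by 0.64 on the log2 scale (SE 0.16, adjusted p = 0.0192, edgeR), from 23.1 to 35.5 CPM in the controls to 41.5 to 47.0 CPM in the mutants, with a series difference of 1.32. With the trend on GC content and transcript length removed from each library it was at 0.43 (adjusted p = 0.085), and its call also ended without Y198F Control 1, Y198F Control 3 or Y198F 2 (adjusted p = 0.0686 to 0.103). The most counted of the 61 was Gm55118, annotated as a 57-base microRNA gene and chosen here after its values were seen. It had 2498, 1915 and 2495 CPM in the controls and 137, 206 and 101 CPM in the mutants, a log2 fold change of -3.96 (SE 0.27, adjusted p = 0.000109, edgeR) beside -4.02 between series. Gm55094 on another chromosome had 37.1 to 64.3 CPM in the controls and 5.23 to 9.25 CPM in the mutants. Their annotated sequences are identical to each other and to that of Gm55936, which was not tested, so counts cannot be assigned with certainty. Gm55276, also not tested, differs at 1 base, given in capitals. They lie at chr16:10961989-10962045 (plus strand), chr9:56130999-56131055 (minus) and chr13:9884505-9884561 (minus) in GRCm39.
Gm55118: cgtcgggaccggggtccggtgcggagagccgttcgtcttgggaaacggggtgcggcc
Gm55094: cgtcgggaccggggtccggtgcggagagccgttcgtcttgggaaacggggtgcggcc
Gm55276: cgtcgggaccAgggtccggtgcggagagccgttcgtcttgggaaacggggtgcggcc

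Of the mitochondrial genes, 26 were tested, 6 fell and 0 rose, against 5.48% lower and 9.55% higher over all genes. The strongest was mt-Atp8, a subunit of ATP synthase, with 381, 345 and 299 CPM in the controls and 42.9, 50.8 and 59.4 CPM in the mutants. It fell by 2.74 on the log2 scale (SE 0.14, adjusted p = 2.55e-06, edgeR), with -2.88 between series in the S205A line. Its neighbour mt-Atp6, on the same bicistronic message, had 4641 to 6661 CPM in the controls and 5675 to 7320 CPM in the mutants and did not pass the test (log2 fold change 0.22, adjusted p = 0.456). Per 1000 mt-Atp6 counts there were 82.1, 51.8 and 60.1 mt-Atp8 counts in the controls and 7.56, 8.56 and 8.12 in the mutants. The 6 S205A-line libraries of the 22 series had 6.89 to 9.30 and the other 2 had 52.3 and 60.1. The annotation places 43 bases in both genes, and these are shown in capitals within chrM:7900-7996 because reads across them fall in both.
mt-Atp8 and mt-Atp6: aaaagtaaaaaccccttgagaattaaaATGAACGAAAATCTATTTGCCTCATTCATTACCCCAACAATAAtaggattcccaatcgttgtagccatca

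The same arrangement occurs once more in the mitochondrial genome. mt-Nd4l, a subunit of complex I, shares 7 bases with mt-Nd4, in capitals within chrM:10140-10200. Per 1000 mt-Nd4 counts there were 223, 166 and 228 mt-Nd4l counts in the controls and 106, 109 and 100.1 in the mutants. mt-Nd4l fell by 0.77 on the log2 scale (SE 0.13, adjusted p = 0.0027, edgeR), whereas mt-Nd4 had a log2 fold change of 0.18 (adjusted p = 0.565). The others that fell were mt-Tn (-1.23), mt-Rnr1 (-0.66), mt-Tp (-0.59) and mt-Rnr2 (-0.50), which encode transfer RNAs and the ribosomal RNAs of the organelle. The call of mt-Tn ended without Y198F Control 1 (adjusted p = 0.0514), that of mt-Rnr2 without Y198F Control 1 or Y198F 2 (0.0528 and 0.0624), and that of mt-Tp without any 1 library but Y198F 3 (0.083 to 0.133). Removal of the GC and length trend left mt-Rnr2 at -0.21 (adjusted p = 0.328).
mt-Nd4l and mt-Nd4: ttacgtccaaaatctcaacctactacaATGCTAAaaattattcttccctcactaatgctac

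Malat1, an abundant nuclear lncRNA whose mature end carries no poly(A) tail (chr19:5845717-5853602), had 4854, 3675 and 4165 CPM in Y198F Control 1, 2 and 3 and 493, 603 and 641 CPM in Y198F 1, 2 and 3. It fell by 2.87 on the log2 scale (SE 0.16, adjusted p = 3.36e-06, edgeR), against -3.11 between series in the S205A line. Of the 18 abundant lncRNAs listed that were tested, 4 fell and 0 rose, with a median of -0.33. That is 22.2% of the list, where 15.0% of all genes were called and 5.48% were lower. The others past the threshold were H19 at -2.75, Meg3 at -0.43 and Norad at -0.37. The call of H19 ended without Y198F Control 1 or 3 (adjusted p = 0.117 and 0.0707), that of Meg3 without any 1 library but Y198F 3 (0.0577 to 0.0923), and that of Norad without any 1 library but Y198F Control 2 (0.056 to 0.139). Norad was at -0.22 (adjusted p = 0.205) with the GC and length trend removed. Neat1, a nuclear lncRNA of paraspeckles, had a log2 fold change of -0.30 (adjusted p = 0.137) and did not pass. Outside the list, Gm13166 fell by 2.54 (adjusted p = 0.00545), and Gm17494 rose by 2.26 (adjusted p = 0.00205) and Gm42047 by 1.20 (adjusted p = 0.0164), with series differences of -1.22, 2.77 and 0.77. Both Gm13166 and Gm17494 overlap other genes, and Gm42047 has 4 near-identical copies (at least 95% identity over 80% of its length), so their counts are uncertain. The call of Gm42047 ended without Y198F Control 1, Y198F Control 3 or Y198F 3 (adjusted p = 0.0503 to 0.0682).

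Processed pseudogenes, which are retrocopies of spliced messages with no introns, had 54.8% of those tested called, against 15.0% of all genes tested. The 867 tested are part of 10245 listed. Of them 248 had under 10 counts in every control library, and 223 of these were called, against 252 of the other 619. A pseudogene that passed the filter on low counts only through the mutants had to be higher there, so these shares describe the pseudogenes tested and not the type. A parent transcript was found by alignment for 838 of the 867. The 413 parent genes that were tested had a median log2 fold change of -0.04, and 44 rose and 52 fell, so the pseudogenes differed where most of their parents did not pass. Of the ribosomal protein pseudogenes, 105 of 303 were tested, under the same limit, and 96 rose and 0 fell, with a median of 2.73 beside 2.98 between series. The 84 cytosolic ribosomal protein genes themselves had a median of 0.09, with 14 higher and 3 lower. Counts of the ribosomal protein pseudogenes per 1000 counts of their parents were 37.4, 37.8 and 36.8 in the controls and 94.5, 91.8 and 101.6 in the mutants. In the S205A line they were 94.1 to 99.9 in the 6 libraries of the 22 series and 37.0 and 38.4 in the other 2.

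Among the pseudogenes tested, the difference varied with how closely the copy matched its parent. The bins include pseudogenes that passed the filter only through the mutants and so had to be higher there. They were not recomputed without them. Of the 33 pseudogenes with at most 90% identity, 1 rose, and the median log2 fold change was -0.31. It was 1.27 from above 90% to 95%, 2.87 from above 95% to 97%, 3.18 from above 97% to 98% and 2.58 from above 98% to 99%. It was lower again for the closest copies, at 1.44 up to 99.5% and 0.65 above that. The level of the parent varied with the same bins: the parent had a median of 1239 times the CPM of the pseudogene in the controls from above 95% to 97%, 25.6 times above 99.5%, and 33.9 times at up to 90% identity. Where the parent was over 1000 times higher, 168 of 182 pseudogenes rose, and where it was at most 10 times higher 21 of 105 did. The fold change and this ratio share the control CPM of the pseudogene, so part of that relation is built in.

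**Figure D2:**
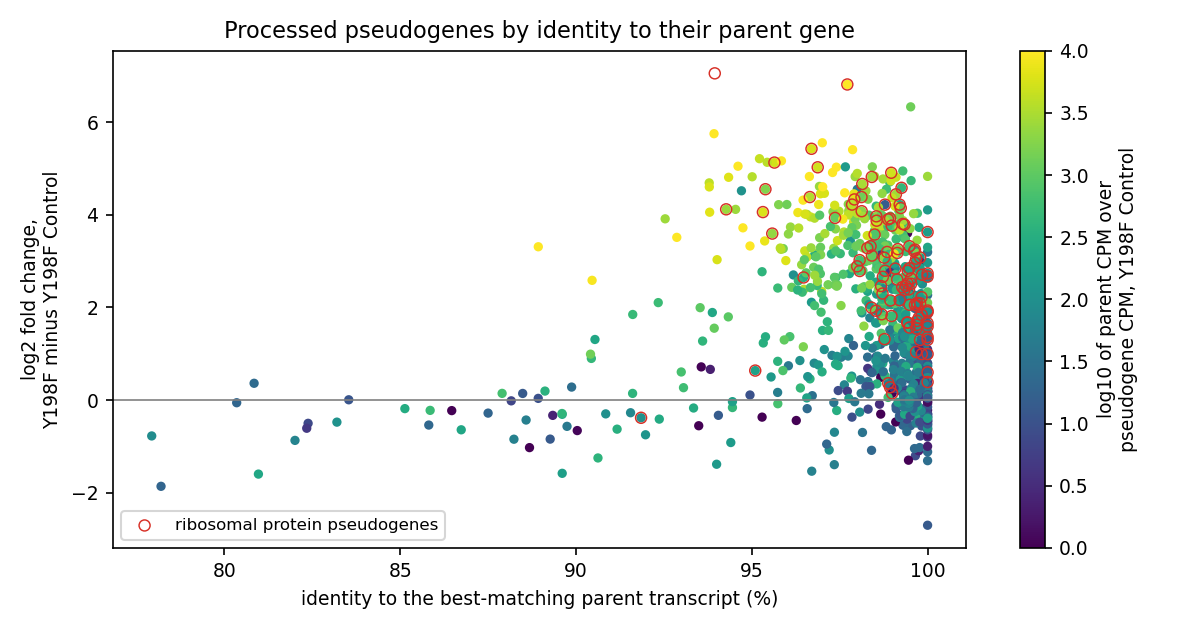
Log2 fold change of each processed pseudogene (1 point each) against its identity to the parent transcript in percent. Colour is the log10 ratio of parent to pseudogene CPM in the Y198F Control libraries, red rings mark ribosomal protein pseudogenes, and pseudogenes at 0 in the controls have no ratio and no filled point. Up to 90% identity 1 of 33 rose, and from above 97% to 98% the median was 3.18.

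The sequences of copies that rose differ from their parents at few bases. Gm13436 on chromosome 2, a copy of the ribosomal protein gene Rpl18 with 99.3% identity, had 0.172, 0.345 and 0.316 CPM in the controls and 11.4, 7.26 and 7.71 CPM in the mutants. It rose by 4.94 on the log2 scale (SE 0.39, adjusted p = 2.82e-05, edgeR), whereas Rpl18 had 157 to 193 CPM in the controls and 219 to 306 CPM in the mutants, a rise of 0.53 on the log2 scale (adjusted p = 0.0299, and 0.0855 to 0.125 without Y198F Control 1, Y198F Control 3 or Y198F 1). Rpl18 was at 0.017 (adjusted p = 0.952) with the GC and length trend removed. Gm5835, a copy of Rpl4 with 96.9% identity chosen after its values were seen, had 7, 3 and 3 counts in the controls and 140, 98 and 97 in the mutants, while Rpl4 had a log2 fold change of 0.003 (adjusted p = 0.992). Stretches of each pair are shown, from chr2:36698075-36698194 and chr1:143021577-143021696 (both minus strand, GRCm39) and from bases 211 to 330 and 649 to 768 of the coding sequences of the parents. Capitals mark the positions that differ within each pair when compared without gaps, 3 in the first and 8 in the second. Most capitals near the end of the second pair would line up if a short gap were allowed. The 8 therefore overstates its single-base differences.
Gm13436: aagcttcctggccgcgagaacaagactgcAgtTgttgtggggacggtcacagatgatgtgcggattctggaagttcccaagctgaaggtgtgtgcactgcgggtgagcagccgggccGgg
Rpl18: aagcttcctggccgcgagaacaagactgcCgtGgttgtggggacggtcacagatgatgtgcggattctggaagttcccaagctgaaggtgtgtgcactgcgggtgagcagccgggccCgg
Gm5835: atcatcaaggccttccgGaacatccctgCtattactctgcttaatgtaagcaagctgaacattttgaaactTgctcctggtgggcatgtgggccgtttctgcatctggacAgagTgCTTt
Rpl4: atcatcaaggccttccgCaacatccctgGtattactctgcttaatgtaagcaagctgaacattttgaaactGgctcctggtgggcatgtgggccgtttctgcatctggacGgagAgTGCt

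The other leading pseudogene, Gm10269, is a copy of Rpl35 with 98.9% identity, and it rose by 4.71 on the log2 scale (adjusted p = 0.000104). Of the pseudogenes that fell and met the limits of the naming rule, Gm31166 was at -1.89 (adjusted p = 0.000364) and Gm21769, which has 7 near-identical copies, was at -1.60 (adjusted p = 0.0201). The call of Gm21769 ended without Y198F Control 1, Y198F Control 3, Y198F 2 or Y198F 3 (adjusted p = 0.0517 to 0.112). Some close copies outside that class rose too. Gm13340 has the length of mt-Co1 (1545 bases) and 97.6% identity to it. It had 8.64 to 10.5 CPM in the controls and 96.4 to 139 CPM in the mutants, a rise of 3.54 on the log2 scale (SE 0.16, adjusted p = 1.3e-06, edgeR), beside mt-Co1 at 0.07 (adjusted p = 0.823). Cox5b-ps, a copy of Cox5b with 99.2% identity, rose by 3.42 (adjusted p = 0.00136), while Cox5b fell by 0.45 (adjusted p = 0.0108). Gm49909, with 99.8% identity to the myosin light chain gene Myl12a, rose by 3.42 (adjusted p = 0.000607), while Myl12a was at 0.09 (adjusted p = 0.668). Gm49909 is not a separate copy elsewhere: it overlaps Myl12a and Myl12b on the same chromosome, so its counts are uncertain. Ly6c2 rose by 2.47 (adjusted p = 0.0018), and its paralog Ly6c1, an endothelial surface protein with 98% identity, was at 0.19 (adjusted p = 0.327).

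Among protein-coding genes with several exons, the difference followed base composition. When the 12908 genes were put into 10 groups by the GC content of the transcript, 230 of the 1292 in the lowest group (up to 42.1% GC) fell and 1 rose, with a median log2 fold change of -0.28. In the highest group (from 58.2% GC) 387 of 1285 rose and 12 fell, with a median of 0.35. The medians went up from group to group without exception, as did those of the series difference in the S205A line, from -0.32 to 0.41. Once the series difference was subtracted the medians lay between -0.07 and 0.03. Per library, the median of the highest group minus that of the lowest was -0.27, -0.31 and -0.38 on the log2 scale in Y198F Control 1, 2 and 3 and 0.36, 0.32 and 0.26 in Y198F 1, 2 and 3. These did not overlap (exact two-sided permutation p = 0.1, the smallest possible). They were 0.24 to 0.40 in the 6 libraries of the 22 series in the S205A line and -0.51 and -0.33 in the other 2.

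Transcript length went with a smaller difference. In the shortest group (264 to 1469 bases) 136 of 1291 rose and 58 fell, with a median log2 fold change of 0.10, and in the longest (from 7296 bases) 32 of 1291 rose and 164 fell, with a median of -0.17. GC content held within length: among the long genes of a 3-way split, 3 of 1964 with low GC rose and 269 fell, whereas 128 of 887 with high GC rose and 25 fell. When each library's trend on GC content and length was removed, an alternative chosen after seeing the data, 1262 of the 16004 genes tested were called (7.89%), among them 393 processed pseudogenes. Zinc finger protein genes, a large family of DNA-binding factors, had 8 higher and 33 lower of 361 (11.4%, against 15.0% of all genes with 5.48% lower) and a median of -0.23, and the median was -0.06 with that trend removed. Library by library, the strength of these trends separated the groups for GC and overlapped for length.

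**Figure D3:**
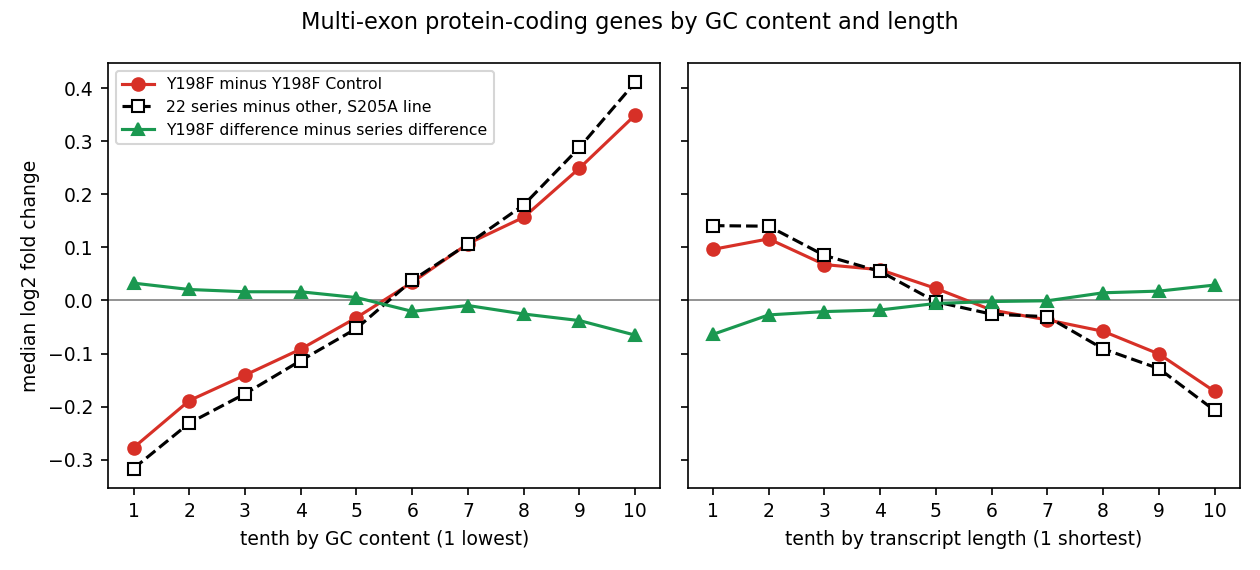
Median log2 fold change of multi-exon protein-coding genes in 10 groups by GC content (left) and transcript length (right). Red is Y198F minus Y198F Control, black the 22 series minus the other libraries in the S205A line, and green the first minus the second. The red line runs from -0.28 to 0.35 over the GC groups, and the green line stays between -0.07 and 0.03.

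A gene from each end, chosen after its values were seen, shows the contrast. Hmgn5, a nucleosome-binding protein of the lowest GC group, had 61.6 to 69.0 CPM in the controls and 19.6 to 30.5 CPM in the mutants, a fall of 1.37 on the log2 scale (SE 0.15, adjusted p = 0.000309, edgeR). Abhd17a, a depalmitoylating enzyme of the highest group, had 28.3 to 29.9 CPM in the controls and 57.04 to 65.8 CPM in the mutants, a rise of 1.09 (SE 0.11, adjusted p = 0.000118, edgeR). The series differences in the S205A line were -1.10 and 1.04. Below are bases 103 to 162 and 64 to 123 of their coding sequences, with G and C in capitals (36.7% GC in the first).
Hmgn5: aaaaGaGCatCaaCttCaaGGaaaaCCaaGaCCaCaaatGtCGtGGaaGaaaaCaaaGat
Abhd17a: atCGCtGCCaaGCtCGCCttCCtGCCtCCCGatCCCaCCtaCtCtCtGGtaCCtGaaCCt

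Of single protein-coding genes, Rgs9 had the lowest fold change. It encodes a regulator that speeds up GTP hydrolysis by G proteins (chr11:109116158-109189025). It had 21.9, 16.5 and 21.2 CPM in Y198F Control 1, 2 and 3 and 0.775, 0.645 and 0.270 CPM in Y198F 1, 2 and 3. It fell by 5.13 on the log2 scale (SE 0.31, adjusted p = 4.37e-06, edgeR), beside -4.68 between series in the S205A line, where 6 libraries lay between 0.334 and 1.18 CPM and the other 2 at 19.3 and 22.01 CPM. Lars2, the mitochondrial leucyl-tRNA synthetase, had 1461, 870 and 1288 CPM in the controls and 117, 168 and 103 CPM in the mutants, a fall of 3.22 (SE 0.25, adjusted p = 0.000244), with -2.78 between series. Both genes were low in the libraries of the 22 series in either line. The counting strand is not stated, so reads of genes that overlap another, among them Malat1, Rgs9, Lars2, Gas7, Ston2, Dbp and Nr1d1, are not certain to be theirs.

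The other leading genes that fell were the matrix protease Adamts4 at -2.36 (adjusted p = 0.00702), the hyaluronan-binding Itih2 at -2.28 (adjusted p = 0.0118), Gas7 at -2.03 (adjusted p = 0.00173) and the endocytic adaptor Ston2 at -1.92 (adjusted p = 0.00635). For Itih2 the series difference was -0.06, for Adamts4 -0.72, for Gas7 -1.44 and for Ston2 -1.69. Without Y198F Control 2 Itih2 was at -1.67 and its call ended (adjusted p = 0.0783). Those that rose beside the copies above were clock genes, given below, and Chst8, a sulfotransferase of glycoproteins, at 1.96 (SE 0.37, adjusted p = 0.00515) with 1.03 to 1.66 CPM in the controls and 3.77 to 6.15 CPM in the mutants, beside 0.93 between series. Of genes outside these classes, Pnma8b fell by 2.18 (adjusted p = 0.00901) and Gm45133, which overlaps other genes and has 1 near-identical copy, by 1.52 (adjusted p = 0.00239).

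**Figure D4:**
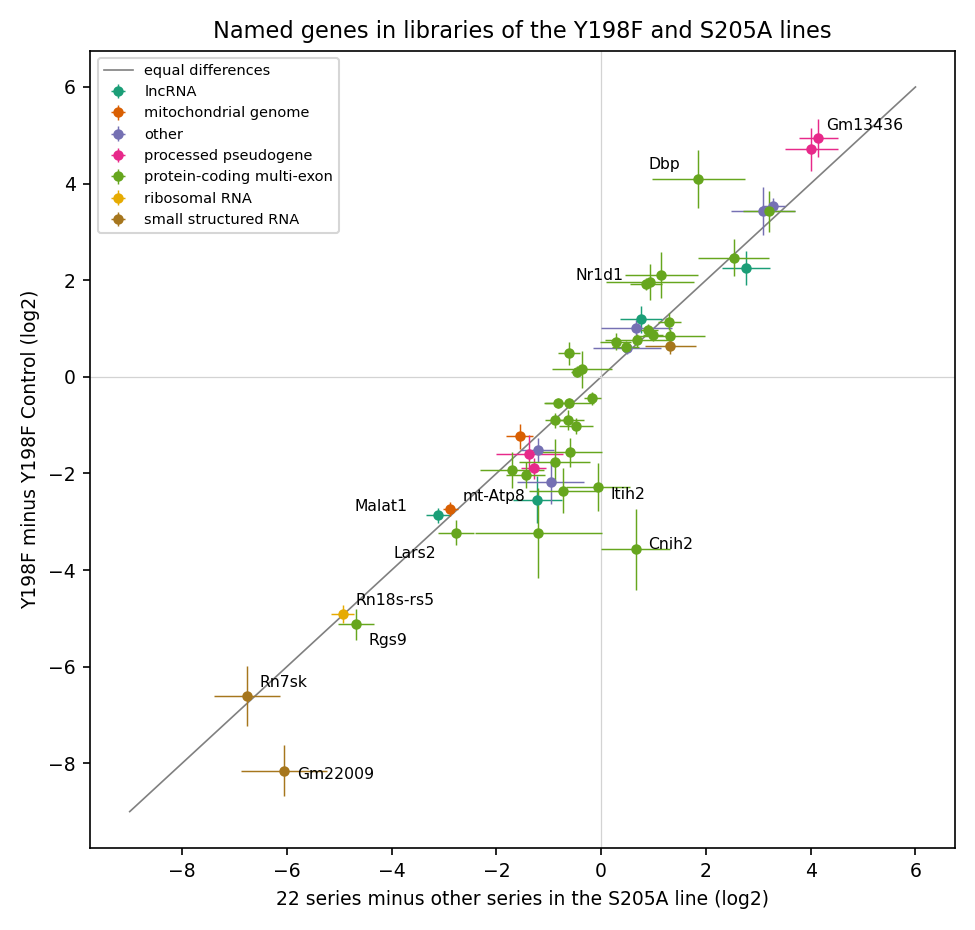
Log2 fold change of Y198F against Y198F Control (vertical) and of the 22 series against other libraries in the S205A line (horizontal) for 52 named genes, with SE bars, coloured by RNA type. The line marks equal differences. Rn18s-rs5, Rn7sk, Malat1, mt-Atp8 and Rgs9 lie near it, whereas Cnih2, Itih2 and Dbp lie away from it.

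The genes of the channel family and of arterial signalling mostly did not pass the test. Of 5 pannexins and vascular connexins tested, Gja4, the endothelial gap junction protein connexin 37, rose by 0.98 (SE 0.12, adjusted p = 0.000586), with 257, 195 and 231 CPM in the controls and 461, 449 and 432 CPM in the mutants. The series difference was 0.89 in the S205A line. Of 9 adrenergic receptors, Adra2c alone rose, by 1.00 (adjusted p = 0.00327), from 12.9 to 20.04 CPM in the controls to 28.8 to 36.7 CPM in the mutants, with 0.67 between series. Of 15 purinergic receptors and ectonucleotidases, the adenosine-producing Nt5e fell, with 2.12, 5.17 and 1.05 CPM in the controls and 0, 0.269 and 0.593 CPM in the mutants (log2 fold change -3.24, SE 0.93, adjusted p = 0.0423), with -1.20 between series. With the GC and length trend removed Nt5e was at -3.21 (adjusted p = 0.0615), and its call ended without any 1 of the controls or Y198F 2 (0.0598 to 0.175). Rgs19 rose by 0.73 (adjusted p = 0.0153) among 13 RGS genes, of which Rgs9 and Rgs1 fell, and was at 0.57 (adjusted p = 0.0629) with that trend removed. Gja4 was then at 0.64 and passed. The call of Rgs19 also ended without Y198F Control 2 or 3 (adjusted p = 0.0572 and 0.0705), and that of Rgs1 without Y198F Control 1, Y198F Control 2, Y198F 2 or Y198F 3 (0.0635 to 0.0874) and with that trend removed (0.212). Each of these shares is to be read against the 15.0% of all genes.

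Of 20 contractile genes of smooth muscle tested, 16 did not pass, 2 rose and 2 fell, a share near the 15.0% of all genes, with a median of -0.15, and the list summed to 49280 to 53711 CPM of all counts in the controls and 43676 to 56381 CPM in the mutants. Tagln, an actin-bundling protein, rose by 1.14 (SE 0.18, adjusted p = 0.00361), from 39.7 to 64.8 CPM to 95.8 to 126 CPM. Tagln overlaps Gm48529 and Pcsk7, so its counts are uncertain, and its level lay far below that of Acta2. Cald1, which inhibits actomyosin, fell by 0.90 (SE 0.16, adjusted p = 0.00354), from 3375 to 4843 CPM to 1973 to 2310 CPM. Their series differences were 1.30 and -0.89. The other calls were those of Smtn and Lmod1, and both ended without Y198F Control 3 (adjusted p = 0.109 and 0.0744), so that 2 of the 4 remained. With the GC and length trend removed Smtn was at 0.24 (adjusted p = 0.266), while 4 genes of the list passed. Of 22 potassium and calcium channel genes tested, 3 rose and 1 fell, 18.2% against 15.0% of all genes: the calcium channel subunit Cacnb3 rose by 0.61 (adjusted p = 0.00771) and the potassium channel Kcna2 fell by 1.02 (adjusted p = 0.00263). Their series differences were 0.47 and -0.47. With the GC and length trend removed Cacnb3 was at 0.34 (adjusted p = 0.099), and 1 gene of the list passed. Without Y198F Control 3 Cacnb3 was at 0.54 (adjusted p = 0.0577).

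Endothelial genes had 5 higher and 1 lower of 18, with a median of 0.18 and of -0.03 between series, against 9.55% higher and 5.48% lower over all genes. The tight junction gene Cldn5 rose by 0.59 (SE 0.11, adjusted p = 0.0043), from 169 to 197 CPM to 259 to 287 CPM, with Tie1, Esam, Nos3 and Robo4, while the transcription factor Erg fell by 0.54 (adjusted p = 0.00838). With the GC and length trend removed, 2 of the 18 passed and Cldn5, at 0.18 (adjusted p = 0.342), did not. Without Y198F Control 3 the calls of Erg (adjusted p = 0.0592), Tie1, Esam, Nos3 and Robo4 (0.0671 to 0.118) ended. The summed level overlapped, at 6553 to 8515 CPM in the controls and 8312 to 9073 CPM in the mutants. In whole arteries fewer cells of a type and less RNA per cell cannot be told apart. Of 17 matrix genes, Ltbp4 rose by 0.75 (adjusted p = 0.00492) with Loxl1, and the microfibril gene Fbn1 fell by 0.54 (adjusted p = 0.00518), 17.6% of the list against 15.0% of all genes. Ltbp4 was at 0.46 (adjusted p = 0.0507) with that trend removed and Loxl1 at 0.16 (adjusted p = 0.412), and the call of Loxl1 ended without Y198F Control 3, Y198F 1 or Y198F 2 (0.0526 to 0.12). None of 14 adventitial fibroblast genes passed (median -0.45, and -0.37 between series), 2 did with that trend removed, and the median was 0.87 against the S205A Control libraries of the 22 series. Of these 14, 5 passed without Y198F 2 and 1 without Y198F 1. In the Y198F comparison their summed level did not overlap, at 7532 to 8762 CPM in the controls and 4976 to 7183 CPM in the mutants.

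Schwann cell and myelin genes had 0 higher and 4 lower of 11, with a median of -0.82 against -0.12 between series, where 5.48% of all genes were lower. Against the S205A Control libraries of the 22 series the median was 0.57, and 2 genes passed with the GC and length trend removed. The calcium-binding S100b fell by 0.89 (SE 0.20, adjusted p = 0.012), from 10.3 to 11.4 CPM to 5.18 to 6.26 CPM, with -0.64 between series. The list summed to 310 to 474 CPM in the controls and 273 to 292 CPM in the mutants. Without Y198F Control 2, the library with the highest sum, the median was -0.35. Without Y198F Control 3, 1 of the 4 calls remained: those of S100b, Mbp and Cdh19 ended (adjusted p = 0.0638, 0.0511 and 0.078). The call of the fourth, Gjc3, ended without any 1 of the mutants (0.0635 to 0.104), and without Y198F 2 S100b alone kept its call. Gap43, a growth-associated protein of axons, fell by 1.76 (adjusted p = 0.0274), as 1 of 5 neuronal genes tested, and its call ended without any 1 library but Y198F 1 (adjusted p = 0.0535 to 0.173). Of 13 white adipocyte genes 0 passed, with a median of 1.04, and Adipoq had 36.2 to 51.6 CPM in the controls and 15.5, 47.6 and 265 CPM in the mutants. Without Y198F 3, the median of the adipocyte list was -0.27 and 1 of its genes passed, and without Y198F 1, 2 did. Macrophage genes (0 of 12), lymphoid genes (0 of 7) and interferon-stimulated genes (0 of 12, median -0.63) did not pass. The interferon list had a median of 0.25 between series, and 1 of its genes passed with the GC and length trend removed. Without Y198F Control 1, 4 of its genes passed, and without Y198F 3, 1 lymphoid gene did. Single stress genes rose, in lists where the share called was below the 15.0% of all genes: Hspb1 by 0.85 (adjusted p = 0.00296) among 10 heat shock genes and Ier3 by 0.87 (adjusted p = 0.00124) among 14 immediate early genes, with 1.31 and 0.99 between series. With the GC and length trend removed Hspb1 was at 0.35 (adjusted p = 0.205). Pabpn1, which lengthens poly(A) tails, fell by 0.44 (adjusted p = 0.0481) as 1 of 12 genes of tail and histone message processing tested. Its call ended without any 1 library but Y198F 3 (adjusted p = 0.0705 to 0.155).

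Clock genes of the evening and morning phases mostly lay in opposite directions. The clock runs as a loop in which BMAL1 and CLOCK drive Per, Cry, Nr1d and Dbp genes that peak later in the day, so tissue levels depend on the hour of collection, which the labels do not give. Dbp, a transcription factor of clock output, had 4.92, 11.9 and 12.1 CPM in Y198F Control 1, 2 and 3 and 99.5, 134 and 262 CPM in Y198F 1, 2 and 3. It rose by 4.10 on the log2 scale (SE 0.60, adjusted p = 0.0179, edgeR), and the series difference was 1.85 in the S205A line. Nr1d1, the repressor REV-ERBα, had 98.5, 107 and 122 CPM in the controls and 389, 423 and 430 CPM in the mutants, a rise of 1.92 (SE 0.12, adjusted p = 4.37e-06), with 0.86 between series. Bhlhe41 rose by 2.12 (adjusted p = 0.0338), Tef by 1.87 (adjusted p = 0.0351) and Nr1d2 by 1.19 (adjusted p = 0.0383). Of these 5, the calls of all but Nr1d1 ended without Y198F Control 2 or without Y198F Control 3, at adjusted p = 0.0683 to 0.142.

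Each of the 10 evening-phase genes had a positive fold change, 5 of them past the threshold where 9.55% of all genes were higher, with a median of 2.02, beside 1.18 between series. The number past it was 10 without Y198F 1 and 6 without Y198F 3. It was 2 without Y198F Control 1 or Y198F 2, and 1 without Y198F Control 2 or 3. Of the 6 morning-phase genes, Nfil3 fell by 1.56 (SE 0.30, adjusted p = 0.00716) and Clock by 0.74 (adjusted p = 0.00884), where 5.48% of all genes were lower, and the median was -1.15. Of these 6, 1 had a positive fold change, of 0.31. With the GC and length trend removed, Clock was at -0.36 (adjusted p = 0.196) and Tef at 1.76 (adjusted p = 0.0643), which left 1 morning gene and 4 evening genes called. Bmal1 had 50.7 to 55.8 CPM in the controls and 24.5, 15.1 and 5.98 CPM in the mutants, which did not overlap, but did not pass the test (log2 fold change -1.79, SE 0.51, adjusted p = 0.0889). The mean log2 level of evening minus morning genes, centred over the 6 libraries, was -2.12, -1.33 and -1.26 in the controls and 0.50, 1.48 and 2.74 in the mutants. Across the S205A line it ran from -0.24 to 3.38 in the 6 libraries of the 22 series and was -1.93 and 2.04 in the other 2, so these overlapped. After subtraction of the series difference, Nr1d1 kept 1.06 and Dbp 2.25, with adjusted p = 1 for both in edgeR's test. Against S205A Control libraries of the 22 series the median of the evening list was -0.46.

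**Figure D5:**
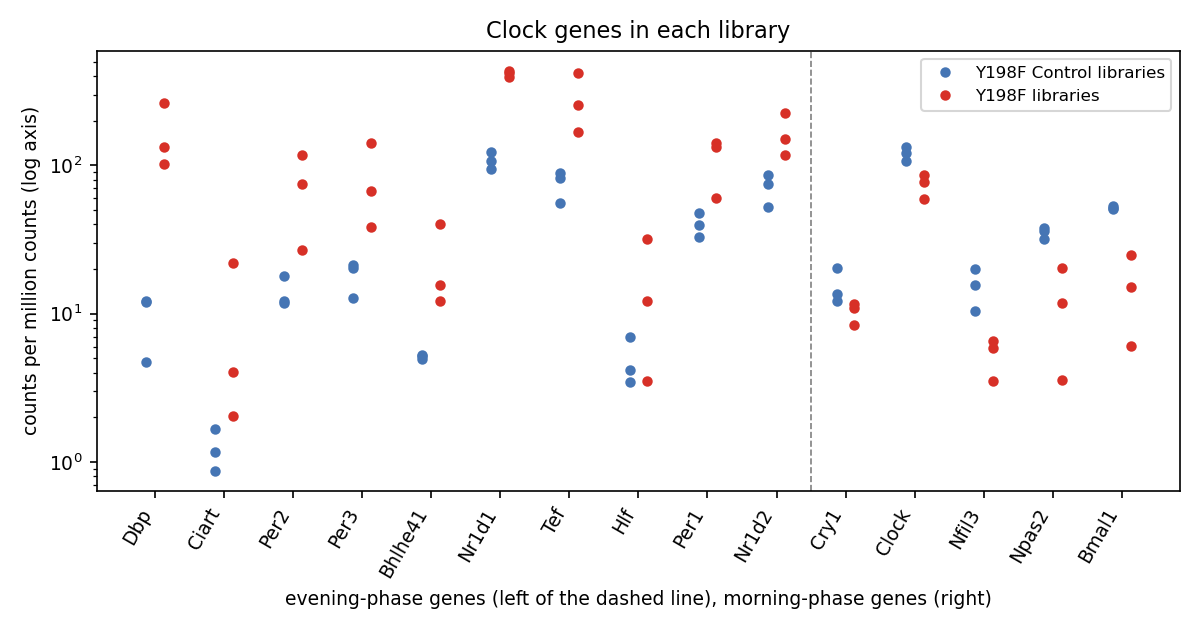
Clock genes in CPM of the library total (log axis), 1 point per library, 3 Y198F Control (blue) and 3 Y198F (red). Evening-phase genes are left of the dashed line and morning-phase genes right of it. Dbp, Nr1d1 and Tef separate the groups, while the groups overlap for Hlf. Not every gene of the morning list is drawn.

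The test of the Y198F difference minus the series difference gave its smallest p-values among protein-coding genes for Cnih2, Mynn, Aspg and Pde4d, none past the threshold after adjustment. Cnih2, a partner of glutamate receptors, had 17, 10 and 24 counts in the controls and 2, 1 and 1 in the mutants, and 0.556 to 1.41 CPM in the 6 libraries of the 22 series in the S205A line. Its call in the Y198F comparison ended without Y198F Control 1, Y198F Control 3 or Y198F 2 (adjusted p = 0.0556 to 0.121). Its difference beyond the series was -4.23 (SE 1.02, adjusted p = 1, edgeR). Mynn had 0.57, Pde4d, which degrades cyclic AMP, 1.10, and Aspg 6.93, each with adjusted p = 1. Their Y198F differences were 0.11, 0.48 and 2.25, none past the threshold (adjusted p = 0.599, 0.191 and 0.0752, edgeR), and the series differences of Mynn and Pde4d were -0.46 and -0.61. Aspg was not tested in the S205A line alone. Aspg had 5, 6 and 5 counts in the controls and 12, 11 and 57 in the mutants, so its level was highest in Y198F 3. Compared with the 3 S205A Control libraries of the 22 series, the Y198F libraries gave 0 called genes of 15879 (0%) in edgeR's test, with 492 (3.10%) at an unadjusted p under 0.05. In that comparison the ribosomal protein pseudogenes had a median of -0.03, all processed pseudogenes 0.01, Rn18s-rs5 -0.003 and Malat1 0.11. Line and genotype cannot be told apart in that comparison.

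The authors also deposited a table of Y198F against control. The log2 fold changes of the authors' deposited table differed by at most 0.00016 from those recomputed with DESeq2 using S205A Control as the reference, and by up to 7.51 from those recomputed with Y198F Control, over 18991 genes. The authors' deposited table holds 3 genes past the threshold, and the recomputed comparison with S205A Control also gave 3, whereas that with the labelled controls gave 1539. Both recomputed counts come from the same DESeq2 fit over all 8 groups, with S205A Control libraries of both series. It differs from the DESeq2 fit of the 6 libraries alone, which called 2849 genes.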

How the data were processed

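Raw counts per gene were deposited by the authors for poly(A) RNA of mesenteric arteries. Per the submitters' processing notes, STAR 2.7.9a, GRCm39, featureCounts in Rsubread 2.20.0 and DESeq2 1.46.0 were used; the annotation and strand setting are not given in the sources used here. The authors' deposited table for Y198F holds log2 values (the fold change and its error), a score (the Wald statistic), p-values and a signal (the mean of size-factor scaled counts). It was compared with the same fit recomputed in DESeq2 1.42.0.

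Here, counts were tested with edgeR 4.0.16 (R 4.3.3, TMM scaling, filterByExpr, robust quasi-likelihood test, Benjamini-Hochberg adjustment, threshold 0.05). GENCODE vM39 gave gene types, positions and canonical transcripts. It matched 56310 of 57010 identifiers, and the other 700 held 0.0433% of counts. Pseudogenes were aligned to parent transcripts with blastn 2.17.0 (e-value 1e-10). Tested on simulated data over 16050 genes for this comparison, the fit recovered 72 of 100 genes changed 2-fold and 94 of 100 changed 4-fold, with 11 false calls. The changed genes were drawn from those with a mean above 2 CPM, so recovery of lower genes was not measured. Alternatives were DESeq2, limma 3.58.1 (voom), other scalings, filters and designs, and each library left out.

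Genes were named by a rule: the pannexins, those with the largest fold change by RNA class and direction (adjusted p under 0.05, mean log2 CPM at least 1, groups not overlapping), the smallest adjusted p per list and direction, and the 4 protein-coding genes with the smallest p beyond the series difference. Genes outside the rule were chosen after their values were seen. The members and the 28 lists were chosen with earlier results of these data known. Counting intervals cover counting error only. Results of some genes are not reported here.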

Additional observations from a re-analysis of the deposited data

Results flagged for a closer look

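Ribosomal protein pseudogene counts per 1000 counts of their parent genes were 99.94 in S205A 3, the highest of the 6 libraries of the 22 series in the S205A line, and the nearest of the others was at 96.29. The gap was 0.626 of the range, just past Dixon's 95% critical value for 6 samples. Chance flags about 1 in 20 such groups, and 36 were examined.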

How the results depend on the processing

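Against 2411 genes called, the number was 1262 with the GC content and length trend removed (736 higher, 526 lower), 922 with all 8 groups in one fit (648 and 274), and 0 with the 22-series S205A Control libraries as controls or with library series as a term in either fit (438 at an unadjusted p under 0.05 over all 8 groups, edgeR). Without the filter on low counts 3158 were called, 1344 of them lower. DESeq2 called 2849, voom 2835, DESeq2's size factors 2407 and TMM from protein-coding genes 2458. Leaving out 1 library gave 908 to 2128 calls, 625 to 1343 higher and 283 to 785 lower. For the series difference it gave 82 to 1133. The numbers do not pair the samples (correlations 0.149, -0.0518 and 0.035), and with the replicate number as a block 1760 genes were called.

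With the 22-series S205A Control libraries as controls, 29 named genes changed sign: Gm13340 -0.14, Malat1 0.11, Gm13436 -0.10, Lars2 0.16, Gja4 -0.044, Ier3 -0.30, Gas7 0.69, Ly6c2 -0.17, Gm17494 -0.15, Kcna2 0.37, Hspb1 -0.28, Adra2c -0.16, Tagln -0.12, Cldn5 -0.15, Ltbp4 -0.12, Fbn1 0.67, Ston2 0.54, Adamts4 0.66, Nfil3 0.27, Erg 0.18, Pnma8b 0.088, mt-Tn 0.21, S100b 0.71, Gm42047 -0.61, Dbp -0.50, Mir145a -0.19, Gm21769 0.22, Gap43 0.12, Bhlhe41 -0.43. The log2 ratios of the shares were then 0.053 for lncRNA, 0.042 for ribosomal RNA, 0.12 for small structured RNA, 0.049 for provisional gene models, 0.00198 for processed pseudogenes, 0.0068 for multi-exon and 0.014 for single-exon protein-coding genes. With library series as a term in both lines, and over all 8 groups, 13 did: Rn18s-rs5 0.025 and 0.030, mt-Atp8 0.13 and 0.14, Malat1 0.24 and 0.24, Ier3 -0.13 and -0.12, Ly6c2 -0.057 and -0.057, Gm17494 -0.51 and -0.51, Hspb1 -0.46 and -0.45, Rn7sk 0.15 and 0.15, Tagln -0.17 and -0.16, Fbn1 0.28 and 0.28, Erg 0.078 and 0.079, mt-Tn 0.32 and 0.32, Mir145a -0.69 and -0.68. Panx1 lay between -0.19 and 0.42 without 1 library, and was at -0.026 without Y198F Control 3 and -0.19 without Y198F 3. The lncRNA share had a log2 ratio of -0.61 without ribosomal and mitochondrial counts and -0.62 over protein-coding counts, and the multi-exon share 0.0054 and -0.0011. Without their most counted gene the lncRNA share was at -0.14 and the small structured RNA share at -0.66. The share of the remaining RNA types was -0.30 to 1.38 without 1 library. Leaving out 1 library ended the call of 13 named genes without Y198F Control 3, 9 without Control 1, 7 without Control 2, and 1, 7 and 3 without Y198F 1, 2 and 3. Of the 49 named genes that were called, 31 lost their call with all 8 groups in one fit, 3 with the replicate number as a block (Gap43, Nt5e and Pabpn1), 3 with voom (Itih2, Nt5e and Pabpn1), 1 with TMM from protein-coding genes (Pabpn1) and 7 with the GC content and length trend removed (Cldn5, Nt5e, Cacnb3, Rgs19, Ltbp4, Hspb1 and Mir145a). The causes were not tested. Precision is limited by 3 libraries per group.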
